A study of Rattus norvegicus with 8 samples.

Results

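The genes described here are 9 members of the p53 pathway: Mdm2, the sestrin genes Sesn1, Sesn2 and Sesn3, the Gadd45 genes Gadd45a, Gadd45b and Gadd45g, Phlda3 and Ccng1. They were chosen by name, and each was represented by the brightest probe set that the platform annotation paired with that gene alone. This gave 8 measured members out of 14506 measured genes, each with a single probe set. Sesn2 was paired with no probe set in the annotation used here and was not analysed. The cells were ventricular heart muscle cells taken from newborn rats and cultured in dishes. Of 8 arrays, 4 came from cells given 0.4 µM of a miR-222 precursor and 4 from cells given 0.4 µM of a scrambled control precursor, both by lipid transfection and both sampled after 48 h. Neither group was untransfected, so each difference holds the effects of both RNAs. The labels do not say whether the arrays came from separate cultures or litters, so the p-values reflect how far these arrays scatter, and that scatter may be technical only.

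The tumour suppressor p53 is a transcription factor that is activated by DNA damage and other stress, mostly through changes of the protein rather than of its mRNA. Mdm2, a ubiquitin ligase, marks p53 for degradation and is itself a p53 target, which closes a feedback loop. Other targets slow the cell cycle (the Gadd45 family, Ccng1), restrain growth signalling through mTORC1 or Akt (the sestrins, Phlda3) or promote cell death. Several of these genes also answer to other factors, among them ATF4 for Sesn2, FoxO factors for Sesn3 and NF-kappaB or TGF-beta for Gadd45b. In the heart, p53 signalling is studied mainly in pressure overload and drug-induced injury.

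The agent compared was a precursor of miR-222, whose mature strands in the rat are shown because the seed (bases 2 to 8, in capitals) sets which mRNAs a microRNA pairs with. The sequences are those of RefSeq on the GRCr8 assembly, where the miR-222 hairpin gives a 5p and a 3p strand on the plus strand of chromosome X. The 3p strand shares its seed with the neighbouring miR-221-3p, whereas the 5p strand has another seed.
rno-miR-222-3p: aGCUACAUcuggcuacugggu
rno-miR-222-5p: gGCUCAGUagccaguguagau
rno-miR-221-3p: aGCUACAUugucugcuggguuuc

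With the miR-222 precursor, 4 of the 8 measured members rose and 2 fell. The log2 fold changes of the Gadd45 genes were all negative, and those of the measured sestrin genes had opposite signs. In such bulk samples fewer cells of a type and less RNA per cell cannot be told apart. Mdm2, Ccng1, Sesn1 and Phlda3 rose by 0.18 to 0.54 on the log2 scale. Gadd45a and Gadd45g fell by 0.44 and 0.57 on that scale. Sesn3 and Gadd45b did not pass the test. These calls are those of limma over all 29170 probe sets at an adjusted p under 0.05, and by the same rule 24.7% of all 14506 genes were called, 11.7% higher and 13.0% lower. The median log2 fold change of the members was 0.02, against 0.01 over all genes, since the rises and falls offset each other. The median size of the change, without its sign, was 0.32 for the members and 0.12 for all genes.

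**Figure D1:**
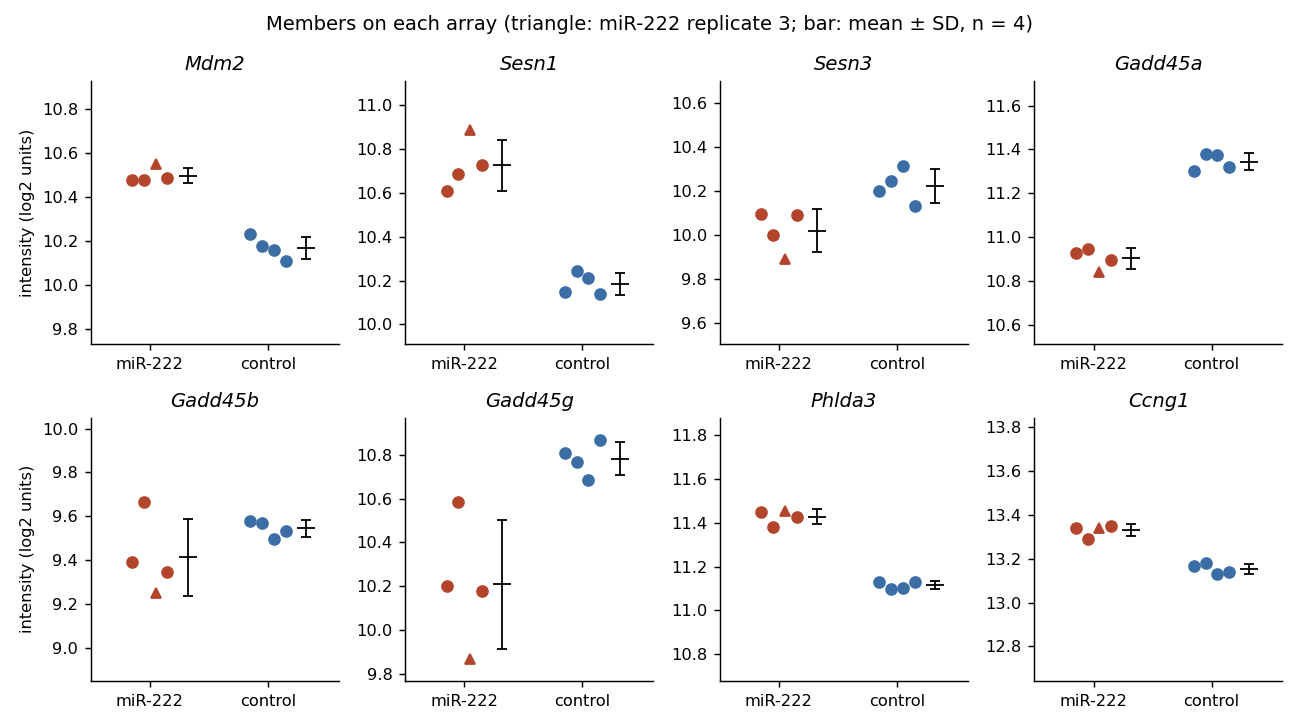
Intensity of each measured member on each array (log2 units; every panel spans the same range of 1.2 units), with miR-222 arrays in red and control arrays in blue, a triangle for miR-222 replicate 3, and the mean ± SD of each group (n = 4). Mdm2, Sesn1, Phlda3 and Ccng1 lie above the control arrays without overlap, Gadd45a, Gadd45g and Sesn3 lie below them, and Gadd45b overlaps.

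Mdm2, the ubiquitin ligase that limits p53, had intensities of 1427, 1427, 1497 and 1433 on the miR-222 arrays, against 1201, 1156, 1141 and 1104 on the control arrays. All 4 miR-222 arrays lay above all 4 control arrays, and miR-222 replicate 3 stood above the other miR-222 arrays. The change was 0.33 on the log2 scale (SE 0.04, adjusted p = 0.00130), or 1.26-fold with a 95% interval of 1.18 to 1.34. It was 0.31 without miR-222 replicate 3, at an adjusted p of 0.00331.

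Ccng1 encodes cyclin G1, an early identified p53 target that recruits the phosphatase PP2A, among others to Mdm2. Its intensities were 10368, 10023, 10382.5 and 10419 on the miR-222 arrays, against 9199, 9281, 8961 and 9029 on the control arrays. The groups did not overlap, although the difference was the smallest of the members called: 0.18 on the log2 scale (SE 0.04, adjusted p = 0.0119), or 1.13-fold. The probe set lay at percentile 99.7 of intensity in the table, and whether the signal is compressed there was not tested. With each array centred on its median the change was 0.15 and the call was lost (adjusted p = 0.0849), and it held when any 1 array was left out.

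The 2 measured sestrin genes moved apart. Sestrins are stress-induced proteins that hold back the growth kinase complex mTORC1 through the GATOR complexes, and Sesn1 is the family member first described as a p53 target. Sesn1 had intensities of 1563, 1645, 1891 and 1696 on the miR-222 arrays, against 1133, 1211, 1186 and 1128 on the control arrays. Every miR-222 array was higher, with replicate 3 the highest. The log2 fold change was 0.54 (SE 0.06, adjusted p = 8.88e-04), a rise of 1.46-fold with a 95% interval of 1.31 to 1.61 and rank 276 of 14506 genes by size of rise. Without miR-222 replicate 3 it was 0.49 (adjusted p = 0.00106).

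Sesn3, known as a FoxO target, had intensities of 1094, 1025, 948 and 1091 on the miR-222 arrays, against 1178, 1215, 1274 and 1121 on the control arrays. The miR-222 values all lay below the control values, but by a narrow gap. The log2 fold change was -0.20 (SE 0.06, 95% interval -0.35 to -0.06) and did not pass after adjustment over all probe sets (adjusted p = 0.0593). It passed in 4 alternatives that tested fewer features or modelled the variance otherwise, at adjusted p of 0.0201 to 0.0359, and in none of those that left out 1 array (0.0558 to 0.139).

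The difference between the 2 sestrins was itself tested within arrays. Sesn1 minus Sesn3 averaged 0.71 ± 0.21 log2 units on the miR-222 arrays and -0.04 ± 0.05 on the control arrays (SD, n = 4 each), a shift of 0.75. The exact two-sided permutation test gave p = 0.0286, the smallest that 4 against 4 arrays allow. After adjustment over the 4 family pairs tested it was 0.0381. Every miR-222 array lay above the controls for Sesn1 and below them for Sesn3, so this p was fixed in advance. The test therefore adds no evidence to those 2 separations. Only the shift is interpretable here, since intensities of different probe sets do not share a scale.

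Gadd45 proteins are small, acidic stress sensors that bind the kinase MTK1 upstream of p38 and JNK, the replication clamp PCNA and the mitotic kinase Cdk1. Gadd45a, the classical p53 and DNA damage target of the family, had intensities of 1950.4, 1975, 1833 and 1908 on the miR-222 arrays, against 2524, 2664, 2657 and 2557 on the control arrays. The groups were far apart relative to their spread, and Gadd45a had the smallest p of all members. The log2 fold change was -0.44 (SE 0.04, adjusted p = 3.77e-04), which is 1.36-fold lower with miR-222. The value was -0.42 without miR-222 replicate 3 (adjusted p = 9.20e-04).

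Gadd45g, known for its induction by cytokines, had intensities of 1179, 1534, 935 and 1160.2 on the miR-222 arrays, against 1790.3, 1741, 1648 and 1870.25 on the control arrays. All miR-222 values were lower, but they spread over a wide range, with replicate 3 the lowest and replicate 2 the highest. The log2 fold change was -0.57 (SE 0.13, adjusted p = 0.0206), or 1.49-fold lower. Leaving out replicate 1, 2 or 4 of the control arrays, or 1 or 4 of the miR-222 arrays, ended the call at adjusted p of 0.0504 to 0.0556. It held without miR-222 replicate 3 (-0.46, adjusted p = 0.0283).

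Gadd45b, known for its induction by NF-kappaB and TGF-beta, had intensities of 671, 811, 609 and 651 on the miR-222 arrays, against 765, 759, 723 and 742 on the control arrays. It was the member whose groups overlapped, because miR-222 replicate 2 stood above every control array. Its log2 fold change of -0.13 (SE 0.08, 95% interval -0.33 to 0.06) did not pass (adjusted p = 0.345). Without miR-222 replicate 2 it was -0.22 and passed (adjusted p = 0.0260), so that 1 array decided the outcome.

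Within the Gadd45 family the shifts were unequal. Gadd45a minus Gadd45b averaged 1.49 ± 0.14 log2 units on the miR-222 arrays and 1.80 ± 0.06 on the control arrays, a shift of -0.31 (exact permutation p = 0.0286, adjusted p = 0.0381). Gadd45b minus Gadd45g averaged -0.80 ± 0.13 log2 units with miR-222 and -1.24 ± 0.07 with control, a shift of 0.44 with the same p-values. For Gadd45a minus Gadd45g the means were 0.70 ± 0.25 and 0.56 ± 0.11, and the shift of 0.13 was within the spread of the arrays (exact permutation p = 0.371). Gadd45a and Gadd45g each shifted down relative to Gadd45b, while a difference between them was not detected with 4 arrays a group.

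**Figure D2:**
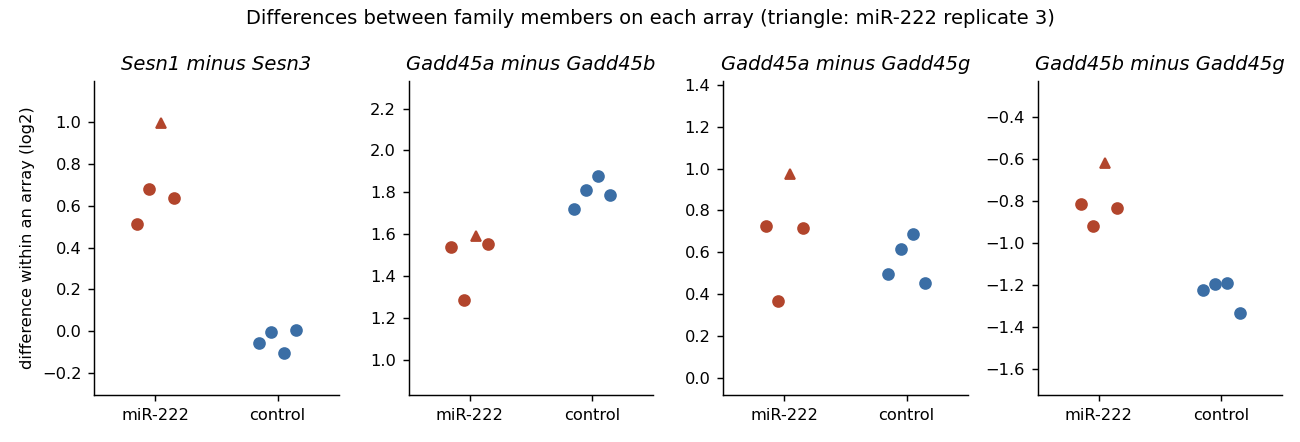
Difference of log2 intensity between 2 family members within each array (every panel spans 1.5 log2 units), with miR-222 arrays in red on the left, control arrays in blue, and a triangle for miR-222 replicate 3. Sesn1 minus Sesn3 lies at 0.51 or above on the miR-222 arrays and at 0.01 or below on the control arrays, and Gadd45a minus Gadd45g is the pair whose groups overlap.

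Phlda3 encodes a small protein with little beyond a lipid-binding PH domain, which competes with the kinase Akt for membrane phosphoinositides and is a p53 target. Its intensities were 2792, 2668, 2807 and 2753 on the miR-222 arrays, against 2243, 2190.1, 2201 and 2238 on the control arrays. The spread was the smallest among the members together with that of Ccng1, at an SD of 0.03 log2 units with miR-222 and 0.02 with control. The rise was 0.31 on the log2 scale (SE 0.04, adjusted p = 8.73e-04), or 1.24-fold with a 95% interval of 1.17 to 1.32. Its value was 0.30 without miR-222 replicate 3.

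**Figure D3:**
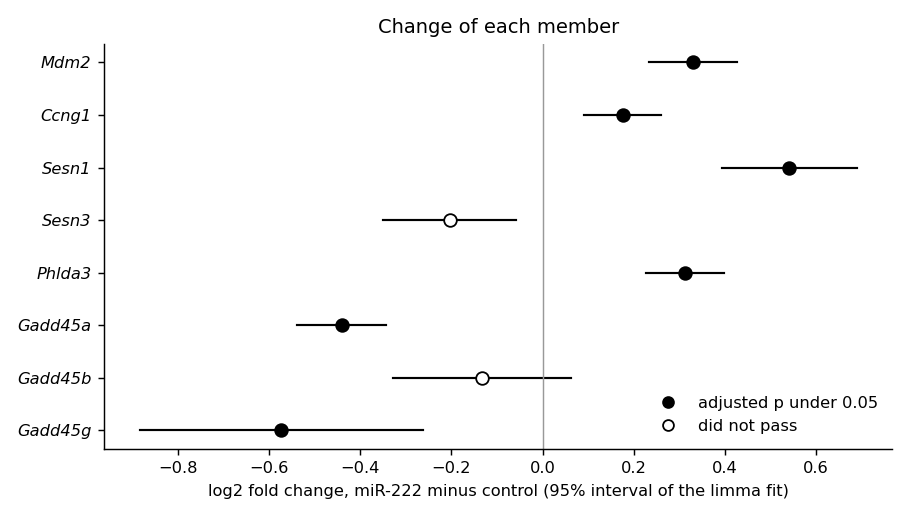
Log2 fold change of each measured member, miR-222 minus control, with the 95% interval of the limma fit (n = 4 each); filled points have an adjusted p under 0.05 and open points do not. The 4 rises lie between 0.18 and 0.54, and the widest interval, of Gadd45g, runs from -0.88 to -0.26.

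The miR-222 and control values did not overlap in 7 of the 8 members, where this held for 33.3% of all genes. The members lay at percentiles 65.9 to 99.7 of intensity, whereas that share covers genes of every level, and a share at like intensity was not computed. In 7 of the 8, all but Ccng1, miR-222 replicate 3 lay farthest of its group from the control mean in the direction of the change. The same array lay farthest in 36.5% of all genes and in 54.6% of the genes called. All 6 calls held without it, and the change of each member was smaller without it. Its part in the size of the changes was not tested beyond that.

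**Figure D4:**
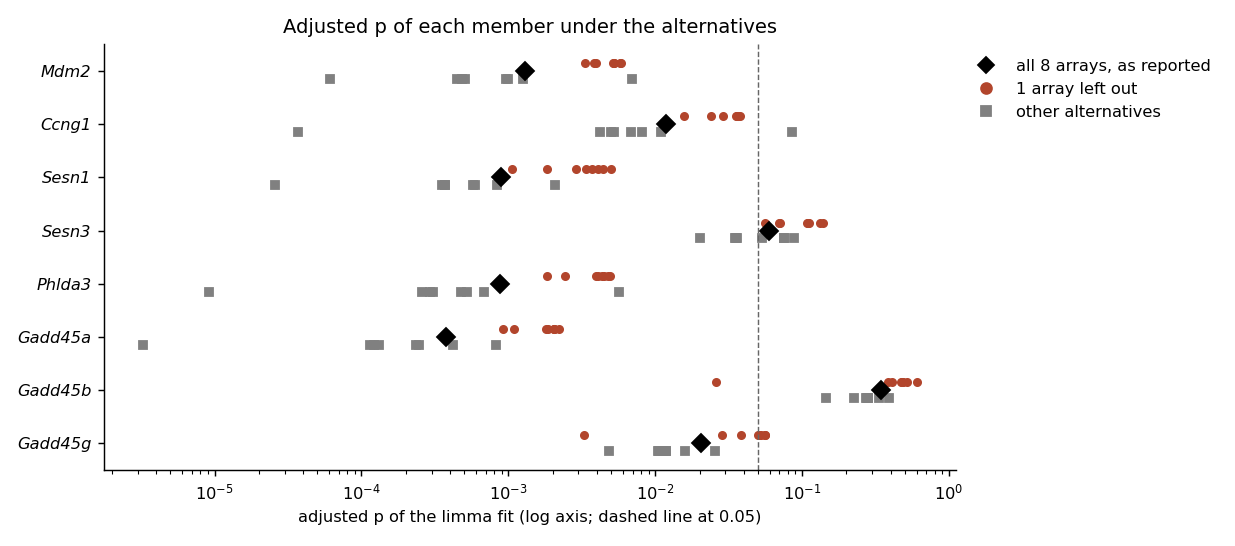
Adjusted p of each member (log axis) with all 8 arrays (diamonds), with 1 array left out (red) and under the other alternatives (grey), with the threshold of 0.05 as a dashed line. Mdm2, Sesn1, Phlda3 and Gadd45a stay left of the line in each, Ccng1 crosses it with median centring, Gadd45g crosses it with 5 of the arrays left out, Gadd45b with 1, and Sesn3 lies on both sides.

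Outside the members, 32 of 39 listed p53 targets were measured, and 8 of them rose, 4 fell and 20 did not pass, with a list median of 0.08. That is 37.5% called, beside 24.7% of all genes, 11.7% higher and 13.0% lower. The largest rises were those of the death receptor gene Fas at 0.54 (SE 0.07, adjusted p = 0.00111), of Cdkn1a, which encodes the cell cycle inhibitor p21, at 0.47 (SE 0.04, adjusted p = 3.17e-04), and of Gtse1, whose product restrains p53 in G2, at 0.47. Cdkn1a had intensities of 4514, 4316, 4706 and 4483 on the miR-222 arrays, against 3298, 3263, 3116 and 3316 on the control arrays, with no overlap. The RNA-binding protein gene Zmat3 at 0.36, the damage recognition gene Xpc at 0.35, Tigar, which limits glycolysis, at 0.34, the TRAIL receptor gene Tnfrsf10b at 0.32 and Tp53inp1 at 0.21 completed the 8. Triggers of mitochondrial cell death gave smaller values that did not pass, with Bax at 0.12 and Bbc3, which encodes PUMA, at 0.04.

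The 4 listed targets that fell were the kinase gene Plk2 at -0.61, the ubiquitin ligase gene Trim32 at -0.43 (SE 0.04, adjusted p = 3.22e-04), the replication clamp gene Pcna at -0.42 and Sertad1, a cyclin-dependent kinase regulator gene, at -0.25. With 4 of 32 measured targets lower, the share was close to the 13.0% of all genes that fell. The fall of Trim32 held without any 1 array. The other 3 calls depended on single arrays. Plk2 did not pass when any control array, or replicate 2 or 3 of miR-222, was left out (highest adjusted p 0.0766). Pcna did not pass when replicate 1, 3 or 4 of the control or 1, 2 or 3 of miR-222 was left out (highest adjusted p 0.0908). Sertad1 did not pass when replicate 2, 3 or 4 of the control or 2 or 3 of miR-222 was left out (highest adjusted p 0.101). It also did not pass with array weights (adjusted p = 0.0955). The 4 falls became 2 when replicate 1 or 2 of the control was left out, and 1 when replicate 3 or 4 of the control or 2 or 3 of miR-222 was left out. Among the rises, Tigar did not pass when any control array, or replicate 1 or 2 of miR-222, was left out (highest adjusted p 0.0774).

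Genes that act on p53 were lower where they changed. Of 20 listed regulators 17 were measured, 6 fell and 11 did not pass, with a list median of -0.09. That is 35.3% called, beside 24.7% of all genes, and 13.0% of all genes fell. Hipk2, a kinase that phosphorylates p53 and is known as a miR-222 target, had intensities of 1786, 1782, 1499 and 1645 on the miR-222 arrays, against 4078, 3922, 3599 and 4069 on the control arrays. Its log2 fold change was -1.22 (SE 0.07, adjusted p = 5.14e-05), which ranked 16 of 14506 genes by size of fall. Its relatives Hipk1, also known as a miR-222 target, at -0.74 and Hipk3 at -0.35 fell as well. Hipk1 and Hipk2 were named because the study is known for them, so they are not independent support for the direction of the list.

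The remaining regulators that fell were the checkpoint kinase gene Chek1 at -1.10 (SE 0.14, adjusted p = 0.00123), Cop1, a ubiquitin ligase for p53, at -0.35 (SE 0.04, adjusted p = 8.44e-04), and Usp7, a deubiquitinase of Mdm2 and p53, at -0.15. The call of Usp7 held when miR-222 replicate 2 was left out and ended with each of the other 7 arrays left out (highest adjusted p 0.109). Quantile normalization also ended it (adjusted p = 0.0728). Mdm4, the partner of Mdm2, gave -0.09 (SE 0.06, adjusted p = 0.338), in contrast to the rise of Mdm2.

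**Figure D5:**
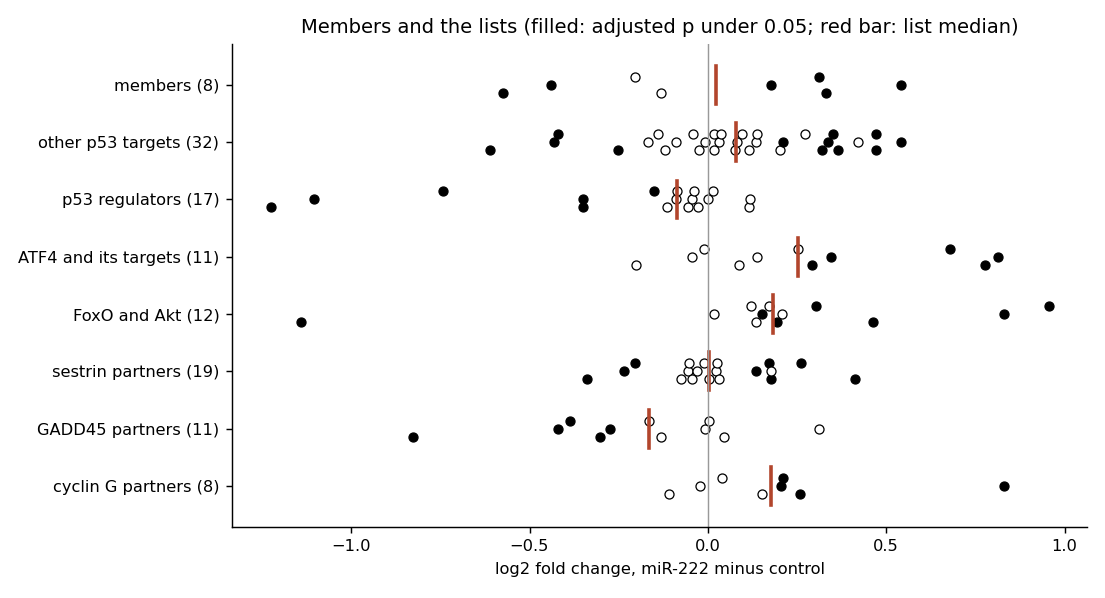
Log2 fold change, miR-222 minus control, of each measured gene of the members and of 7 lists, with the number measured in brackets; filled points have an adjusted p under 0.05 and red bars mark list medians. Medians run from -0.16 for the GADD45 partners to 0.25 for the list of ATF4 and its targets.

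Promoter sequences were examined for the p53 half-site, the degenerate motif of which a pair makes a full p53 element, because Sesn1, Ccng1, Mdm2 and Phlda3 moved together. The windows span 250 bases before to 50 after the annotated start of each gene, from RefSeq on GRCr8, and the motif reads the same on both strands. It was found in 7.98% of 33469 promoters, and in 3 of the 9 members: Sesn1, 172 bases before the start, Ccng1, 232 bases before it, and Gadd45a, 48 bases before it. Of the other listed p53 targets with a promoter in the RefSeq table, 6 of 32 held it (18.8%), among them Cdkn1a, where it lay 201 bases before the start. They are shown because members that rose and the member with the clearest fall both hold it. The windows are chr20:46948469-46948768 on the plus strand for Sesn1, chr10:25684827-25685126 on the minus strand for Ccng1, chr4:97486750-97487049 on the minus strand for Gadd45a and chr20:7150682-7150981 on the plus strand for Cdkn1a, each read 5′ to 3′ along the gene with the half-site in capitals.
Sesn1 promoter: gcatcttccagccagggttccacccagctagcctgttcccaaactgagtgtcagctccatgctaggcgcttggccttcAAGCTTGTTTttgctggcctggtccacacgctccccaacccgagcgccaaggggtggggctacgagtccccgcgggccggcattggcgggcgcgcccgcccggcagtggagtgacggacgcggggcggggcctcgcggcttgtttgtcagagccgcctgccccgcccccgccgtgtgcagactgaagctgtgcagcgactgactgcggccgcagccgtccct
Ccng1 promoter: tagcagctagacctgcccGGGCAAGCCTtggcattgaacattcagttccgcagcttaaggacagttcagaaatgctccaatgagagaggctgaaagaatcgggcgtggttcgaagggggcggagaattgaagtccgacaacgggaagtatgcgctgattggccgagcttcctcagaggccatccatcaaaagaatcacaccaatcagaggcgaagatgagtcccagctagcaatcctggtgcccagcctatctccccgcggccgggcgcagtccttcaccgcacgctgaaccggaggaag
Gadd45a promoter: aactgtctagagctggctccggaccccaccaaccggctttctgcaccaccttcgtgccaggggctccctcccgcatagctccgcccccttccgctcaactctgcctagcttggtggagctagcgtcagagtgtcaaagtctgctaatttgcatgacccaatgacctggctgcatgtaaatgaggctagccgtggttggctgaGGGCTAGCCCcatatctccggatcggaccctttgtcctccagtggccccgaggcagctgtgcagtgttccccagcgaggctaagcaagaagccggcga
Cdkn1a promoter: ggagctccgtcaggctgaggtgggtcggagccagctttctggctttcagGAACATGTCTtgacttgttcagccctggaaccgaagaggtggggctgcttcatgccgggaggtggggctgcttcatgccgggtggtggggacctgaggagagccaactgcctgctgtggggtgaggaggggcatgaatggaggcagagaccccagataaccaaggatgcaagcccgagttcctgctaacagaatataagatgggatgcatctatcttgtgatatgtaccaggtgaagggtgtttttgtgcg

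A match of letters is a description and not a binding site. The 2 members with a half-site that rose, Sesn1 and Ccng1, and the member that fell, Gadd45a, show no common direction. Mdm2 and Phlda3 rose, and these letters are not in their windows, nor in those of Sesn2, Sesn3, Gadd45b and Gadd45g. Known p53 elements of Mdm2 and Gadd45a lie in introns, outside such a window.

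Another list held Atf4, which encodes a factor of the amino acid and unfolded protein stress responses that also controls Sesn2, together with 10 of its targets. Of these 11 genes 5 rose and 6, Atf4 among them, did not pass, and the median over all 11 was 0.25. That is 45.5% called, beside 24.7% of all genes, and 11.7% of all genes rose. The 5 were Ddit3, which encodes CHOP, at 0.81 (SE 0.13, adjusted p = 0.00312), the Akt inhibitor gene Trib3 at 0.78, the glutathione-degrading Chac1 at 0.68 and the serine synthesis genes Psat1 at 0.34 and Phgdh at 0.29. Atf4 gave -0.05 (SE 0.06, adjusted p = 0.647). Chac1 lost the call with array weights (adjusted p = 0.0848) and when replicate 1, 2 or 3 of the control or 2, 3 or 4 of miR-222 was left out (highest adjusted p 0.108).

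Among 12 measured FoxO and Akt genes 6 rose, 1 fell and 5 did not pass, with a median of 0.18. That is 58.3% called, beside 24.7% of all genes, 11.7% higher and 13.0% lower. Foxo1 rose by 0.95 (SE 0.10, adjusted p = 5.78e-04), the cyclin G2 gene Ccng2, a FoxO target and the paralog of Ccng1, by 0.83 (SE 0.17, adjusted p = 0.0116), and the muscle ubiquitin ligase genes Fbxo32 by 0.46 and Trim63 by 0.30. Foxo3 gave 0.17 and did not pass (adjusted p = 0.0997). Akt2 rose by 0.19 and Akt1 by 0.15, and median centring ended both calls (adjusted p = 0.0578 and 0.188). Akt1 also did not pass when any control array, or replicate 1 or 3 of miR-222, was left out (highest adjusted p 0.0825). Phlda1, a relative of Phlda3 with a PH domain of its own, was the gene that fell, at -1.14 (SE 0.08, adjusted p = 7.81e-05), opposite to the rise of Phlda3.

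Of 11 measured genes listed as GADD45 partners, which include kinases downstream of MTK1, 5 fell and 6 did not pass. The median was -0.16, where 13.0% of all genes fell. Those that fell were the JNK gene Mapk8 at -0.83 (SE 0.08, adjusted p = 3.30e-04) and its upstream kinase gene Map2k7 at -0.39. With them fell the p38 kinase kinase gene Map2k3 at -0.27, the DNA glycosylase gene Tdg at -0.30, and Pcna. Of the bound proteins named earlier, only Pcna fell. The MTK1 gene Map3k4 gave 0.004 and Cdk1 0.04, and neither passed. Of 8 measured partners and relatives of cyclin G1 4 rose and 4 did not pass, with a median of 0.18, where 11.7% of all genes rose. The 4 were Ccng2, which passed in every alternative run, the PP2A subunit genes Ppp2r5a at 0.26 and Ppp2r5b at 0.21, and Cdk5 at 0.21. Median centring ended the calls of Cdk5 (adjusted p = 0.0556) and Ppp2r5b (0.0780). Ppp2r5a did not pass when replicate 2 or 3 of the control or 4 of miR-222 was left out (highest adjusted p 0.0556), nor Ppp2r5b when replicate 2, 3 or 4 of the control or 1 or 2 of miR-222 was (highest adjusted p 0.0700).

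Of 19 measured sestrin partners 5 rose, 3 fell and 11 did not pass, with a median of 0.00. That is 42.1% called, beside 24.7% of all genes, 11.7% higher and 13.0% lower. Castor2, of an arginine sensor family that binds GATOR2, rose by 0.41 (SE 0.07, adjusted p = 0.00529) and Depdc5 of GATOR1 by 0.26, while Prkaa1, a catalytic subunit of AMPK, fell by 0.34 (SE 0.06, adjusted p = 0.00423). These 3 held without any 1 array. Rragc at 0.17, Nprl3 at 0.18, Tsc2 at 0.13, Rptor at -0.23 and Sec13 at -0.20 each lost the call when single arrays were left out, Tsc2 with any of the 8 (highest adjusted p 0.112). Whichever array was left out, the list held 2 or 3 rises and 1 or 2 falls. Rragc and Rptor failed with 6 and 7 of the 8 arrays in turn, Nprl3 and Sec13 with 6 each. Median centring also ended the calls of Rragc (adjusted p = 0.123), Nprl3 (0.155) and Tsc2 (0.178). Sec13 lost its call with quantile normalization and with median centring (highest adjusted p 0.0647).

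As a description of likeness, the genes whose deviations from the group means over the 8 arrays most resembled those of the 3 members with the smallest p were found among 14505 candidates. For Gadd45a they were Vsig2 (r = 0.970) and Fam98a (r = 0.969), for Phlda3 Rnf10 (r = 0.992) and Dpf2 (r = 0.982), and for Sesn1 Ift172 (r = 0.982) and Rab9a (r = 0.982). The points share the array, and values this high are picked as the extremes of many. Of these 6 genes, Ift172 rose by 0.39 (adjusted p = 9.47e-04) and Dpf2 by 0.15 (adjusted p = 0.0343), Fam98a fell by 0.27 (adjusted p = 0.00600), and Vsig2, Rnf10 and Rab9a did not pass.

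Markers of the labelled cell type and of others were read as lists, and the changes called lay in some genes of each list. Of 10 cardiomyocyte markers 3 fell, with log2 fold changes of -0.61 for Myh7, -0.36 for Ttn and -0.14 for Ryr2, whereas Myh6 (-0.01), Tnni3 (-0.02) and Myl2 (-0.02) differed little and did not pass. That is 30% called, beside 24.7% of all genes, and 13.0% of all genes fell. The list median was -0.09, and 7 of the 10 had every miR-222 array below every control array. The groups did not overlap, in either direction, in 33.3% of all genes. The summed intensity of the cardiomyocyte markers was 83101 to 85438 on the miR-222 arrays, against 91504 to 94057 on the control arrays. Of 10 fibroblast markers 4 fell, Lum at -0.89, Thy1 at -0.64, Postn at -0.54 and Ddr2 at -0.35, and the sum was 8560 to 9753 with miR-222, against 10004 to 11170 with control. The fibroblast list had a median of -0.21, with 40% called.

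Of 5 smooth muscle markers only Tagln fell, at -0.91, while Myh11 gave 0.16 and did not pass, and the sum was 21326 to 24165 with miR-222, against 25583 to 25915 with control. Of 6 endothelial markers only Kdr fell, at -1.51, and the other 5 lay between -0.13 and 0.04 and did not pass, with a sum of 1053 to 1151 with miR-222, against 1616 to 1733 with control. Of 7 leukocyte markers C1qa rose by 0.26, and the sum was 826 to 881 with miR-222, against 798 to 831 with control. The share called was 20% of the smooth muscle, 16.7% of the endothelial and 14.3% of the leukocyte markers, beside 24.7% of all genes. The sums pool probe sets that share no scale, so the brightest and the most changed genes carry them. Whether a marker was expressed above background was not tested, nor was the part of these markers in the changes of the members.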

How the data were processed

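Expression was measured on 8 arrays, 4 of cells with a miR-222 precursor and 4 with a control precursor, and groups were taken from the labels. The deposited table holds the authors' processed intensity per probe set on a linear scale, with near-equal array medians of 202 to 219. How the authors corrected and normalized these values is not given in the sources used. The series text names another rat array of the same maker, whereas the table's identifiers pair with the annotation of the Rat Gene 1.0 ST platform, which gave 14506 genes. Replicates are numbered in listing order. Correlations between arrays were 0.993 to 0.997 within and 0.984 to 0.990 between groups over genes.

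Values were taken as log2 without a pseudocount. All 29170 probe sets were fitted with limma 3.58.1 (lmFit, eBayes) in R 4.3.3, with p-values adjusted by Benjamini and Hochberg over all of them and a threshold of 0.05. All 8 measured members lay above the 25th percentile of level. Other genes were also read from their brightest probe set, and Hipk1, Psat1 and Bax had 2 each. The mean of a gene's probe sets was run for the members only. Family pairs were compared by exact permutation over arrays in SciPy 1.17.1, and the 2 planned pairs with Sesn2 were not run. The fit and the permutation test were tested on simulated data. Alternatives were a pseudocount of 16, a filter at the 25th percentile, named probe sets only, quantile normalization, median centring, trended robust variance, array weights, the mean of a gene's probe sets, and leaving out each array.

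The members and the 7 pathway and 5 marker lists were chosen with earlier results of these data known. Pathway genes were named as the 4 with the smallest p of each list, and all called genes of lists with 5 or fewer calls, with Hipk1 and Hipk2. A further 15 genes were named to complete counts and 5 (Bax, Bbc3, Mdm4, Atf4, Foxo3) singled out, after their values were seen, as were the marker genes named. The number of arrays limits the precision.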

Additional observations from a re-analysis of the deposited data

Results flagged for a closer look

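In 6 of 116 groups of 4 arrays examined over 58 named genes, 1 array stood apart from the other 3 beyond the 95% limit of Dixon's test, where chance gives about 1 in 20. For Mdm2, miR-222 replicate 3 was the highest at 10.55 log2 units against 10.48 in each of the other 3 (gap over range 0.914), and the rise held without it. For Ccng1, miR-222 replicate 2 was the lowest at 13.29 against 13.34 to 13.35 (0.873). Replicate 3 of miR-222 was also the lowest for Map2k3, at 10.08 against 10.26 to 10.27 (0.921), and for Tdg, at 9.88 against 9.95 to 9.96 (0.888). For Rragc, miR-222 replicate 2 was the highest at 10.77 against 10.73 (0.858), and for Bax, control replicate 2 was the highest at 10.79 against 10.59 to 10.62 (0.83). The cause of these deviations was not tested.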

How the results depend on the processing

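No paired analysis was possible because the labels give the groups no shared replicate numbers. Mdm2, Sesn1, Phlda3 and Gadd45a kept their direction and their call in all 16 alternatives run for each, at adjusted p of 3.25e-06 to 0.00695. Of 128 values over the 8 members and their alternatives, 117 stayed on the same side of the threshold, 6 lost and 5 gained the call, and 0 changed sign. The filter, named probe sets only and trended robust variance leave the log2 fold change as it is, so no sign could change there. The same holds for the probe set mean, since each member has a single probe set. Ccng1 lost it with median centring (0.15). Gadd45g lost it without several single arrays, with a range of -0.70 to -0.46 over the arrays left out. Sesn3 gained it at an unchanged -0.20 with the filter, with named probe sets only, with trended robust variance and with the probe set mean, and Gadd45b without miR-222 replicate 2, with a range of -0.22 to -0.078. The count of members lower was 1 to 3 over the arrays left out, and that of members higher stayed at 4 there. Over all genes 1190 to 2059 were higher and 1404 to 2205 lower across the alternatives, and no alternative moved the median of all genes by over 0.1. Of the 45 other named genes called, 31 kept the call without any 1 array and 14 lost it. Leaving out 1 array gave 1 to 4 lower p53 targets, 2 to 3 higher and 1 to 2 lower sestrin partners, and 2 to 4 higher cyclin G1 partners; with median centring, 2 sestrin partners and 2 cyclin G1 partners were higher. Family differences kept their direction, but with 1 array left out an exact test cannot go below 0.0571, so none was run there. The cause of these shifts was not tested.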
